A study of Mus musculus with 8 samples.

Results

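The Schlafen family was measured by 9 probe sets of 7 genes (Slfn1, Slfn2, Slfn3, Slfn4, Slfn5, Slfn8 and Slfn9) among the 45141 probe sets, and the 17097 singly annotated genes, of an Affymetrix mouse expression array. They are every probe set to which the platform annotation gives 1 gene symbol from that list: Slfn3 and Slfn5 had 2 probe sets each and the other genes 1. The family was chosen by the intensities of these same arrays, with the comparison of both groups in view, so its differences are a description, with no test. The 8 arrays hold total RNA of mouse acute myeloid leukaemia (AML) cells. The 4 arrays titled Trib1 hi come from a cell line labelled as expressing Hoxa9 and Trib1, and the 4 titled Trib1 null from one labelled as expressing Hoxa9. Both were grown, untreated, in IMDM with 10% serum and 5 ng/ml of the cytokine IL-3, and the leukaemia developed in Trib1 homozygous knock-out mice, a deletion both groups share. The labels used here do not give the strain and age of the mice, how Hoxa9 and Trib1 were introduced, and whether a line is 1 clone. Nor do they say that arrays of a group are separate cultures, so the p-values measure the spread between arrays, which may be technical.

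Schlafen genes take their name from the German word for sleep, because forced expression of the first members slowed the growth of T cells. The mouse genes lie side by side in 1 cluster and fall into a short form (Slfn1, Slfn2), an intermediate form (Slfn3, Slfn4) and a long form with a helicase-like domain (Slfn5, Slfn8, Slfn9). All share a Schlafen core domain, which binds or cuts transfer RNA in several members. Many are induced by type I interferon, and in myeloid cells Slfn2 is needed for quiescence while Slfn4 marks activated macrophages and immature myeloid cells.

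Values are the intensities that the authors deposited on a linear scale. Low signals differed in scale from array to array. The 75th percentile of intensity was 15.5 to 96.0 on Trib1 hi 1, 2 and 4, but 422 on Trib1 hi 3 and 222 to 384 on the arrays titled Trib1 null, and the median was 68.3 on Trib1 hi 3 against 3.71 to 9.52 on the others. Spearman's correlation over probe sets was 0.973 to 0.979 within the arrays labelled Trib1 hi, 0.957 to 0.967 within those labelled Trib1 null and 0.943 to 0.952 between them. Folds were computed after raising signals under 500 to 500, and are written "at least" where this touched a group. Control probe sets also differed between the groups: those for dap were lower in the arrays titled Trib1 hi, with log2 differences from -1.26 to -0.50, the last at 2097 ± 176 against 2963 ± 266 (SD, n = 4), whereas a bioD control at 7660 ± 1136 against 7376 ± 675 differed by 0.05. Controls for bioC differed by -0.34 to 0.20, with overlapping groups. The labels were checked on the genes they name. With the brighter of 2 probe sets, Trib1 gave 7.13, 7.13, 122 and 5.92 on the arrays titled Trib1 hi and 304, 223, 212 and 206 on those titled Trib1 null, all under 500 and opposite to the titles, and the dimmer one read 2.57 to 28.0 against 2.93 to 16.7. Hoxa9, which both labels name, read 107 ± 189 against 1024 ± 43.5, at least 2.05-fold lower. Whether these probes lie inside the deleted or introduced sequences is unknown here, so they may check nothing. Groups are accordingly called the arrays labelled Trib1 hi and Trib1 null.

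In the arrays labelled Trib1 hi, Slfn4 was far lower, Slfn2 was slightly lower, and 1 of the 2 Slfn3 probe sets lay under 500, which it exceeded in the other group. The other 6 probe sets, for Slfn1, Slfn3, Slfn5, Slfn8 and Slfn9, lay under 500 on all 8 arrays. Of the 9 probe sets, 3 were lower without overlap between the groups, against 7.38% of all 45037 probe sets other than controls, and 1 was higher without overlap, against 12.1%; since the genes were picked with this contrast known, nothing is read from these counts.

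Slfn4, an intermediate form found in macrophages and immature myeloid cells, had the larger fold of the 2 Schlafen probe sets over 500 on all 8 arrays. Its probe set 1427102_PM_at read 1254, 1156, 1300.2 and 1339 for the replicates labelled Trib1 hi. It read 9126, 11111, 10443 and 10522 on those labelled Trib1 null. All 4 arrays labelled Trib1 hi lay close together and far under the lowest array labelled Trib1 null. The means were 1262 ± 78.9 and 10301 ± 838 (SD, n = 4), an 8.16-fold lower signal, and the fitted log2 difference was -3.02 ± 0.10 (SE). Among the 7538 probe sets over 500 on all 8 arrays, only 2 had a log2 difference lower than that of Slfn4, a selection that leaves out probe sets which fell under 500. In bulk RNA one cannot tell fewer cells that express Slfn4 from less Slfn4 RNA per cell.

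Slfn2, the short form that keeps T cells and monocytes quiescent, stayed abundant in both groups. Its probe set 1450165_PM_at read 4219, 4199, 3239 and 4299 for the replicates labelled Trib1 hi. It read 5044, 5776, 5192 and 5544 on those labelled Trib1 null. The groups did not overlap, and Trib1 hi 3 was the lowest of all. The means were 3989 ± 502 and 5389 ± 332 (SD, n = 4), 1.35-fold lower, with a fitted log2 difference of -0.44 ± 0.11 (SE). Without Trib1 hi 3 the mean of the arrays labelled Trib1 hi was 4239 ± 53.2, 1.27-fold under the other group. This difference is smaller than that of the dap control (-0.50), whose part in it was not tested. Among probe sets over 500 on all 8 arrays, 25.4% were lower without overlap and 24% were higher, so separation of this kind was common.

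Slfn3, an intermediate form known from the gut epithelium and T cells, gave different answers with its 2 probe sets. Probe set 1450322_PM_s_at read 8.04, 9.47, 259 and 7.85 for the replicates labelled Trib1 hi. It read 995, 991, 1009.7 and 982 on those labelled Trib1 null. The second group was tight and the first lay wholly under 500, so the signal was at least 1.99-fold lower, at measured means of 71.1 ± 125 and 994 ± 11.7 (SD, n = 4). The fitted log2 difference was -5.35 ± 0.80 (SE), which became -3.65 under quantile normalization and -0.99 once signals were raised to 500, so only the bound is given as a fold. Probe set 1421644_PM_at read 1.58 to 3.14 on all 8 arrays, at the bottom of the scale. By the maker's naming, the suffix s_at marks probes shared by more than 1 transcript. Which transcripts these are is unknown here, so the signal of 1450322_PM_s_at cannot be assigned to Slfn3 alone.

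The remaining genes stayed under 500 on every array. Slfn1, the other short form, read 3.36 to 30.2 on the arrays labelled Trib1 hi and 2.74 to 3.55 on those labelled Trib1 null. The long forms Slfn5, Slfn8 and Slfn9 follow. Slfn5 read 3.38 to 56.9 against 3.31 to 4.42 with 1442640_PM_at and 3.40 to 32.9 against 2.93 to 3.29 with 1458458_PM_at, the latter being the probe set that was higher without overlap. Its log2 difference of 0.72 became -0.08 under quantile normalization, with overlap. Slfn8 read 6.75 to 148 against 4.99 to 77.4, and Slfn9 3.10 to 38.0 against 2.86 to 7.39. In 6 of these 7 dim or partly dim probe sets, the 259 of Slfn3 included, the highest value of the arrays labelled Trib1 hi was that of Trib1 hi 3, the array with the raised median. Of the relatives outside the family list, Slfn10-ps, a pseudogene of the same cluster, read 24.3 to 478 against 119 to 343.

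**Figure D1:**
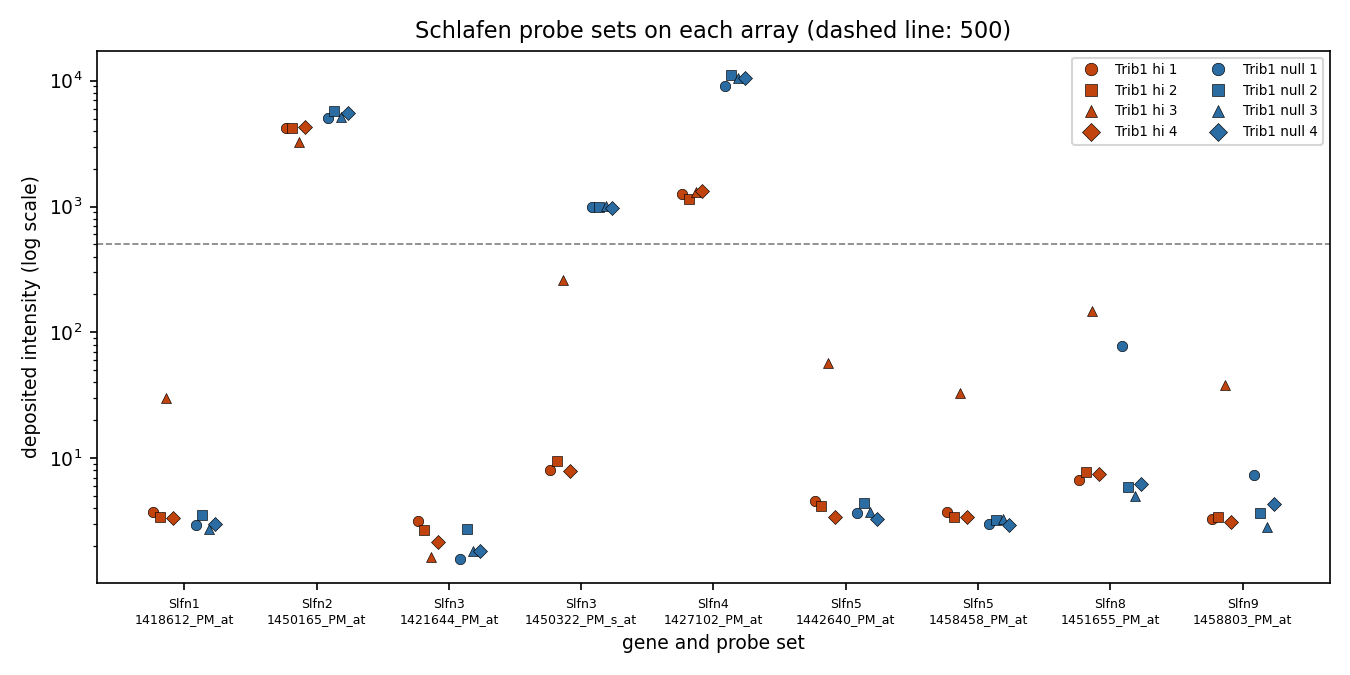
Deposited intensity (log axis) of the 9 Schlafen probe sets on each of the 8 arrays; colour gives the group, symbol shape the replicate number, and the dashed line the signal of 500. Slfn4 separates by 8.16-fold, Slfn2 by 1.35-fold, 1450322_PM_s_at of Slfn3 falls under the line in the arrays labelled Trib1 hi, and the other 6 probe sets stay under it throughout.

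Because low signals differed between arrays, each probe set was also placed among the 45037 probe sets of its own array by rank, which scaling of an array does not change. Slfn4 stood at percentile 86.8 to 87.3 on the arrays labelled Trib1 hi and at 98.2 to 98.3 on those labelled Trib1 null. Slfn2 stood at 94.2 to 94.6 against 95.9 to 96.2. For both genes Trib1 hi 3 sat with its group on this scale. The Slfn3 probe set 1450322_PM_s_at stood at 66.1 to 70.0 against 84.0 to 84.8, and here too Trib1 hi 3, at 70.0, lay beside the other 3. The second Slfn5 probe set, higher without overlap in intensity, overlapped in percentile (33.7 to 39.6 against 36.2 to 40.1). Slfn1 (33.7 to 38.9 against 28.8 to 42.6) overlapped as well. Slfn8 stood at 62.1 to 67.6 against 57.8 to 62.8 and Slfn9 at 26.3 to 37.7 against 31.4 to 55.7, both with overlap.

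**Figure D2:**
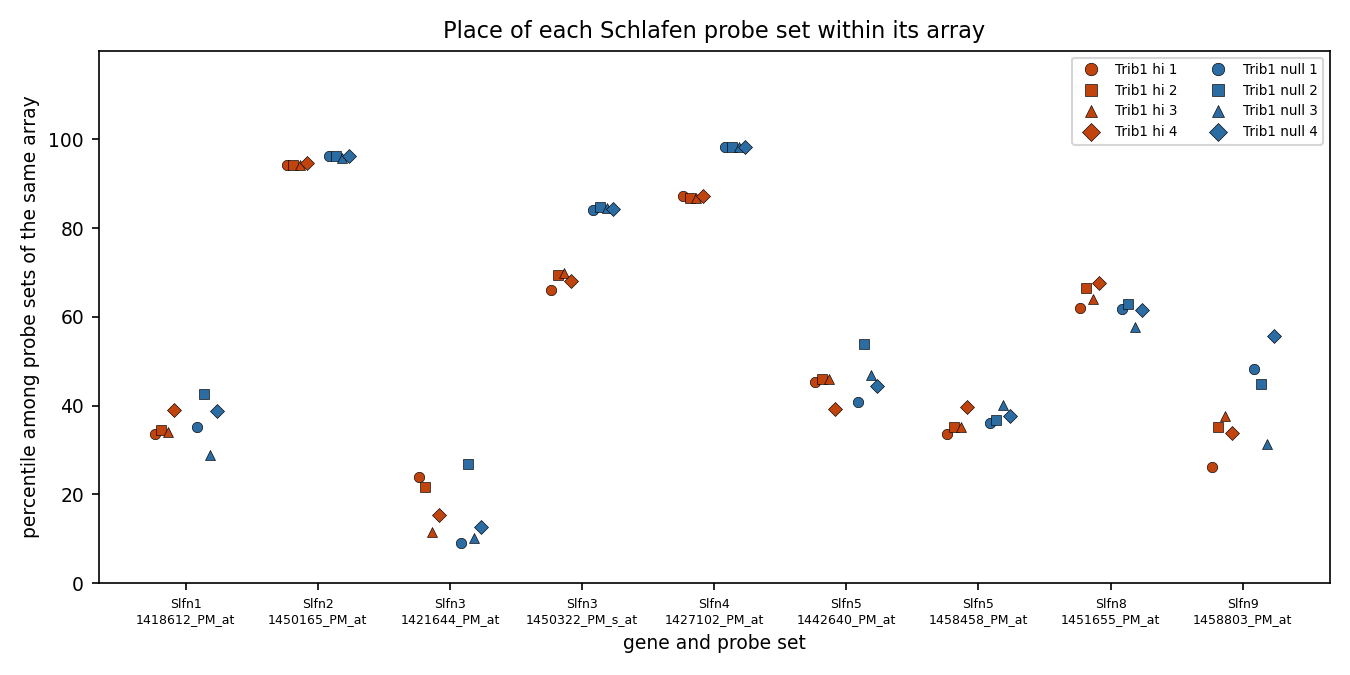
Percentile of each Schlafen probe set among the 45037 probe sets of the same array, by array; colour gives the group and symbol shape the replicate number. Slfn2, Slfn4 and 1450322_PM_s_at of Slfn3 separate the groups, with Trib1 hi 3 beside its group, whereas the other 6 probe sets overlap.

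Slfn4 and Slfn2 changed to unequal degrees. The log2 ratio of the Slfn2 signal to the Slfn4 signal, which multiplying an array by a constant does not alter, was 1.75, 1.86, 1.32 and 1.68 on the arrays labelled Trib1 hi. It was -0.86, -0.94, -1.01 and -0.92 on those labelled Trib1 null. The ratio was thus higher by 2.59 in the arrays labelled Trib1 hi, with no overlap between the groups. Its level compares probe sets of different genes and has no meaning by itself.

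The genes whose log2 values followed Slfn4 most closely over the 8 arrays, out of 5323 genes with a mean over 500, were Hopx, Ccl3, Dgat1, Rab32 and Cep19, with Pearson's r of 0.9989 to 0.9999. Hopx, a homeodomain protein without DNA binding, read 1172 ± 44.4 against 7229 ± 500 (6.17-fold lower). The chemokine Ccl3 read 1653 ± 63.8 against 4169 ± 138 (2.52-fold lower) and Dgat1, which makes triglycerides, 1151 ± 65.9 against 5621 ± 259 (4.89-fold lower). Rab32, a small G protein of lysosome-related organelles, was 3.14-fold lower and Cep19, a centrosomal protein, 3.56-fold lower. The genes were picked by this likeness, and r over 2 separated groups contains the difference between the groups. For deviations from the group means, r with Slfn4 ran from 0.776 to 0.966 for the 5 genes. These deviations are part of the values by which the genes were picked, so nothing is read from them.

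Promoter sequences of all 7 genes were read from RefSeq (GRCm38.p6), from 250 bases before to 50 after each start site. The promoters of Slfn4, Slfn2 and Slfn3, the annotated genes of the probe sets with lower signals, are shown whole. The signal of 1450322_PM_s_at cannot be assigned to Slfn3 alone. In all, 5 motifs were searched on both strands, each of them picked after these promoters had been read, so their matches support nothing. Capitals mark the ETS core AGGAAGT, the element bound by PU.1 and its relatives, which appears as ACTTCCT where it lies on the other strand.
Slfn4 promoter, GRCm38.p6 chr11:83174936-83175235, plus strand: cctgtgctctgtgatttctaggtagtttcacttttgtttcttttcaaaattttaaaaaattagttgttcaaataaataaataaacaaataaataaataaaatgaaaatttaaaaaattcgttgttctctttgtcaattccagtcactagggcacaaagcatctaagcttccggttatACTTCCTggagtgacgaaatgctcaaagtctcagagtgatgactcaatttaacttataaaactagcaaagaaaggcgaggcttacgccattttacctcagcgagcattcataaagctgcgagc
Slfn2 promoter, GRCm38.p6 chr11:83064862-83065161, plus strand: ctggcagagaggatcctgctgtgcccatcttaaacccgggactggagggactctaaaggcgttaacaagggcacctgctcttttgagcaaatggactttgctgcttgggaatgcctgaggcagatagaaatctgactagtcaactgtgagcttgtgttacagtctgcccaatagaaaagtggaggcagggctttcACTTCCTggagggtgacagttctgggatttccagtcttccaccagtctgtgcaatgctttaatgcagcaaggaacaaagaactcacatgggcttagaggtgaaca
Slfn3 promoter, GRCm38.p6 chr11:83191080-83191379, plus strand: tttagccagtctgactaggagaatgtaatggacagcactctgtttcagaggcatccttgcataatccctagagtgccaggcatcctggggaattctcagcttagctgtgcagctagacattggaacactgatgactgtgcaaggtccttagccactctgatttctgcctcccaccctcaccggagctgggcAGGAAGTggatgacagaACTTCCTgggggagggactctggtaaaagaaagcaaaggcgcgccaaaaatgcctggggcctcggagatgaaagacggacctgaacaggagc
Matches to AGGAAGT on either strand occurred in Slfn1, Slfn2, Slfn3 and Slfn4, the short and intermediate forms, and in 9.35% of the 32851 promoters of this length. They lay at -73 to -67 in Slfn4, -55 to -49 in Slfn2, -74 to -68 in Slfn1, and at -59 to -53 and -42 to -36 in Slfn3, counted from the start site. A longer run, CCAGGAAGT, was noticed in the sequences and then searched. It overlaps the ETS core, occurred in the same 4 promoters and was present in 0.843% of all promoters. Slfn1, which holds it too, was under 500 on all arrays.

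The windows around the ETS core of Slfn1, Slfn4 and Slfn2 are set one under another to compare the bases beside it.
Slfn1: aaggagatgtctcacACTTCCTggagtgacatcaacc
Slfn4: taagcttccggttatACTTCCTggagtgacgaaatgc
Slfn2: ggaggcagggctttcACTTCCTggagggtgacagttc
The long forms held another element. A pair of GAAA with any 2 bases between them, the core of the interferon-stimulated response element (ISRE) bound by interferon regulatory factors (IRFs), matched on either strand in Slfn5, Slfn8 and Slfn9, in 0 of the promoters of Slfn1, Slfn2, Slfn3 and Slfn4, and in 3.44% of all promoters. It was found in 16 of 27 interferon-stimulated genes with a promoter entry (59.3%). In these windows capitals mark that element, which reads as a pair of TTTC where it lies on the other strand.
Slfn5: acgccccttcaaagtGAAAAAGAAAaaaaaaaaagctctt
Slfn8: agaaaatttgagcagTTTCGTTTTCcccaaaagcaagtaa
Slfn9: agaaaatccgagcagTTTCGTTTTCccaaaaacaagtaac
The matches lay at -155 to -146 in Slfn5 and -45 to -36 in Slfn9, and in Slfn8 at -48 to -39 or -136 to -127, depending on which of its 2 annotated starts is used. The C/EBP core TTGCNNAA matched in Slfn2 and Slfn3 and in 10.8% of all promoters, and the STAT palindrome TTCNNNGAA in 0 of the 7 genes and in 8.30% of all promoters. These are matches of letters only.

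**Figure D3:**
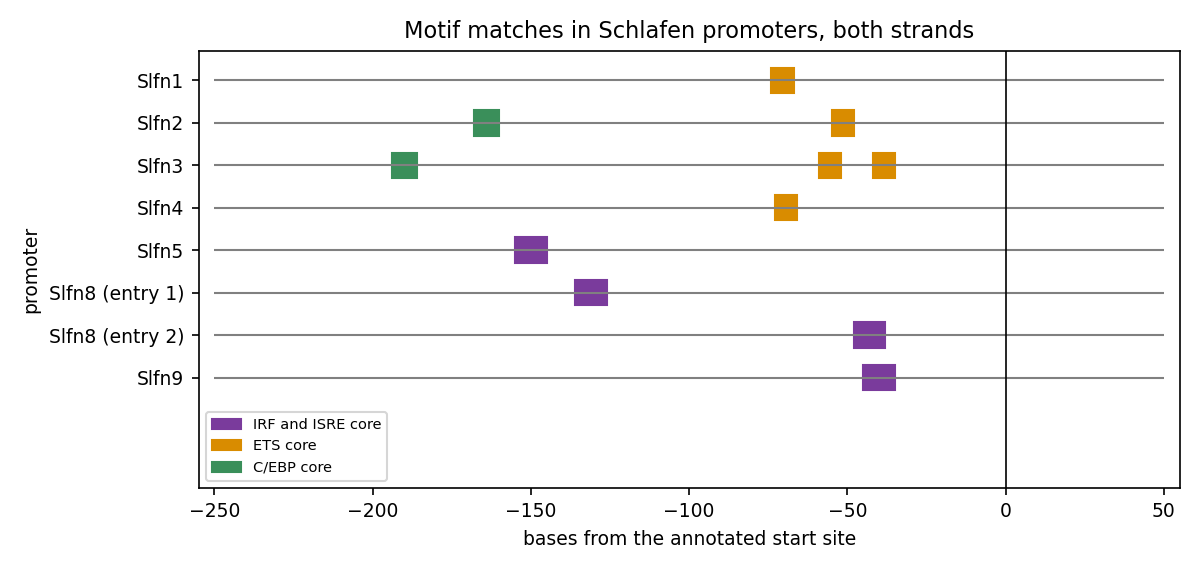
Positions of motif matches on either strand in the promoters of the 7 Schlafen genes, in bases from the annotated start site; each line is a promoter, Slfn8 has 2 entries, and boxes show the ETS core (AGGAAGT), the IRF and ISRE core (a pair of GAAA) and the C/EBP core (TTGCNNAA). The ETS core occurs in Slfn1 to Slfn4 and the IRF and ISRE core in Slfn5, Slfn8 and Slfn9.

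Of the interferon-stimulated genes outside the family, some had lower signals under the label Trib1 hi and others did not pass the test. Differences of genes outside the family were tested with limma, fitted across all probe sets, two-sided, with Benjamini-Hochberg adjustment. Of 28 tested members of a list of such genes, 18 were lower, 0 were higher and 10 did not pass at an adjusted p under 0.05, against 19% lower and 10.3% higher among all 12251 genes tested. Over all probe sets 2207 were higher and 4057 lower, a split that became 6548 and 6195 after quantile normalization. The list had a median log2 difference of -1.13, against 0.04 over all genes. The count of lower genes was 19 without Trib1 hi 3, while lower probe sets over the whole array rose from 4057 to 6986. With signals under 500 raised to 500, 12 of the 15 genes still tested were lower, against 29.3% of all genes. Of the 7 list genes over 500 on all 8 arrays, 5 were lower, against 23.4% of such genes. With each gene taken as the mean of its probe sets, 9 were lower, the lowest count of the alternatives over the whole list. Of the 32 list genes on the array, 17 were under 500 on all 8 arrays.

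Samd9l, a restriction factor against poxviruses, was among the bright ones and read 1125 ± 90.5 against 2801 ± 154 (2.49-fold lower, adjusted p = 4.65e-10). Ifitm3, which blocks viral entry, read 841 ± 33.8 against 1615 ± 70.3 (1.92-fold lower, adjusted p = 1.49e-06). Zbp1, a sensor of Z-form nucleic acid, was at least 2.75-fold lower (491 ± 185 against 1549 ± 152, adjusted p = 6.76e-08), and Ifih1, the RNA sensor MDA5, at least 2.41-fold lower (327 ± 161 against 1235 ± 56.0, adjusted p = 2.00e-07). Trim30a (2342 ± 183 against 2142 ± 160, adjusted p = 0.518) and Ifi35 (1270 ± 106 against 1448 ± 115, adjusted p = 0.369), bright in both groups, did not pass. These 6 lie outside the rule for named genes and were picked with their values known. The rule for named genes gives Rsad2, Dhx58, Cmpk2 and Gbp2, the called genes without overlap whose fitted differences were largest. Cmpk2, a mitochondrial nucleotide kinase next to Rsad2, read 89.9 ± 146 against 600 ± 74.0 (at least 1.20-fold lower, adjusted p = 0.000274). Rsad2, the antiviral protein viperin, read 57.2 ± 100.6 against 375 ± 90.8 (adjusted p = 0.00634), Dhx58 47.1 ± 77.9 against 360 ± 100.2 (adjusted p = 0.00677) and Gbp2, a guanylate-binding protein, 49.8 ± 80.4 against 334 ± 73.8 (adjusted p = 0.00939), all under 500. The call of Dhx58 ended without Trib1 null 3 (adjusted p = 0.0546, range over alternatives 3.61e-07 to 0.0546), and that of Gbp2 without Trib1 null 1, 3 or 4 (range over alternatives 4.56e-05 to 0.0655). Ifit1 and Mx1, classical interferon targets also picked with their values known, read 2.69 ± 0.376 against 2.74 ± 0.395 and 1.84 ± 0.578 against 2.01 ± 0.295, at the bottom of the scale in both groups.

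**Figure D4:**
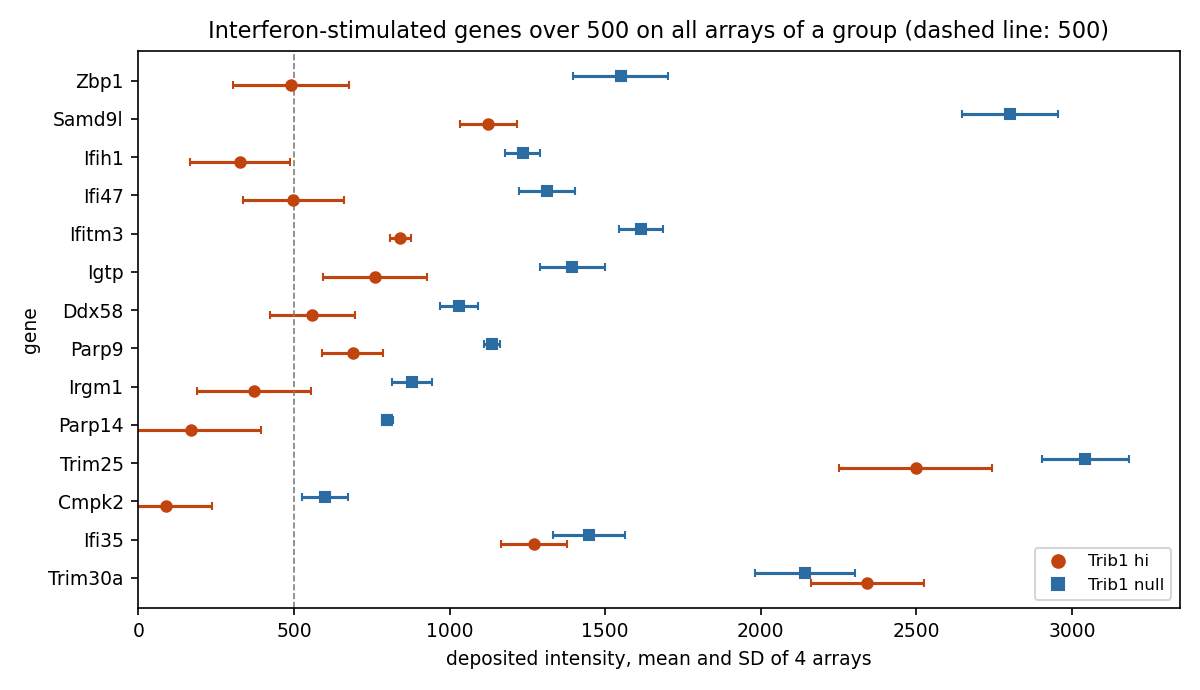
Mean deposited intensity (linear axis, bars give SD over 4 arrays) of the 14 interferon-stimulated genes that exceeded 500 on all arrays of at least 1 group, ordered by difference; circles stand for the arrays labelled Trib1 hi and squares for those labelled Trib1 null, and the dashed line is 500. Of the 14 genes 12 were lower in the arrays labelled Trib1 hi by limma, and Ifi35 and Trim30a did not pass. A gene can enter through the arrays labelled Trib1 null alone. No share of all genes under this filter was computed, so nothing is read from that count. Of the 7 genes over 500 on all 8 arrays, 5 were lower, against 23.4% of all such genes.

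Receptors and signalling proteins through which interferons act were counted in the same way. Of 12 tested members of the list of interferon receptors and JAK-STAT genes, 7 were lower and 1 was higher, beside 19% and 10.3% of all genes. The higher one was Ptpn6, a phosphatase, at 6138 ± 987 against 4804 ± 403 (1.28-fold, adjusted p = 0.0276), with overlapping groups. The count of higher genes was 0 without Trib1 hi 1, 2 or 4 or Trib1 null 1 or 4. It was 3 without Trib1 hi 3, where higher probe sets over the whole array rose from 2207 to 3570. With the mean of a gene's probe sets, 3 were lower. Ifngr1 and Ifngr2, the chains of the interferon gamma receptor, were 1.61-fold lower (4767 ± 523 against 7689 ± 451, adjusted p = 6.37e-06) and 1.51-fold lower (813 ± 201 against 1225 ± 95.8, adjusted p = 0.00569, 0.0875 without a filter on low values, range over alternatives 0.000113 to 0.0875). Tyk2, a kinase of the type I receptor, was 1.74-fold lower (844 ± 114 against 1470.0 ± 72.5, adjusted p = 4.21e-05). Socs3, a feedback inhibitor, was at least 2.15-fold lower (223 ± 230 against 1102 ± 57.0, adjusted p = 2.43e-05). The chains of the type I receptor, Ifnar2 and Ifnar1, were picked with their values known. Ifnar2 read 6444 ± 943 against 6235 ± 351 (adjusted p = 0.906). Ifnar1 read 258 ± 235 against 481 ± 34.5 with overlapping groups. It was called lower by limma (adjusted p = 0.0279), a call lost at a floor of 500. Of 8 interferon regulatory factors tested, 2 were lower (25%, near the 19% of all genes) and 0 higher. The lower count was 1 without Trib1 hi 2. It was 5 without Trib1 hi 3, where lower probe sets over the whole array rose from 4057 to 6986. Irf2 was at least 1.49-fold lower (331 ± 113 against 743 ± 39.4, adjusted p = 0.00023). Irf1 was 1.40-fold lower (905 ± 194 against 1264 ± 56.5, adjusted p = 0.0147). Its call was lost without Trib1 hi 2 and with no filter on low values (alternatives from 0.00158 to 0.118).

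Genes for other RNA-acting antiviral proteins and for cleavage of transfer RNA, were listed for their likeness in function to the Schlafen core. Of 10 tested, 3 were lower (30%) and 1 was higher (10%), beside 19% and 10.3% of all genes. Without Trib1 hi 3 these counts were 5 and 2. In that setting lower probe sets over the whole array rose from 4057 to 6986 and higher ones from 2207 to 3570. Isg20, an exonuclease, was at least 3.02-fold lower (193 ± 234 against 1544 ± 128, adjusted p = 1.27e-07), N4bp1, an RNA-binding nuclease, at least 2.56-fold lower (440 ± 223 against 1454 ± 113, adjusted p = 1.57e-07) and Samhd1, which destroys deoxynucleotides, 1.91-fold lower (1574 ± 54.4 against 3008 ± 105, adjusted p = 6.07e-08). Angel2, a phosphatase acting on RNA ends, was at least 1.79-fold higher (1066 ± 141 against 593 ± 109, adjusted p = 0.000335).

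Quiescence and G1 control, the processes for which Slfn1 and Slfn2 were first studied, had 21 genes tested, of which 9 were lower and 4 higher, beside 19% and 10.3% of all genes. Higher genes numbered 7 under quantile normalization, where higher probe sets over the whole array rose from 2207 to 6548. Lower genes numbered 5 with the mean of a gene's probe sets. Of the 14 genes over 500 on all 8 arrays 5 were lower and 4 higher, beside 23.4% and 23.7% of all such genes. Cdkn1b, the cell cycle inhibitor p27, was 2.14-fold lower (1281 ± 165 against 2746 ± 192, adjusted p = 2.35e-08). Rbl2, the pocket protein p130, was at least 3.20-fold lower (519 ± 144 against 1799 ± 95.0, adjusted p = 1.42e-09), Cdkn2c, the inhibitor p18, at least 2.01-fold lower (adjusted p = 3.09e-05) and Klf2, a transcription factor of resting cells, at least 1.58-fold lower (adjusted p = 0.000496). The 4 higher genes, named here outside the rule, drive entry into the cycle: cyclin D2 (Ccnd2) was 1.73-fold higher (adjusted p = 4.21e-06), Cdk4 1.55-fold (adjusted p = 6.43e-05), cyclin E2 (Ccne2) 1.46-fold (adjusted p = 0.000681) and Cdk6 1.23-fold with overlapping groups (adjusted p = 0.0447). Genes with such a role did not all move this way. Cyclin D3 (Ccnd3), also outside the rule, read 1890 ± 131 against 3809 ± 198 (2.02-fold lower, adjusted p = 1.17e-08). E2f1 was called lower too, with overlapping groups (adjusted p = 0.0475), a call lost at a floor of 500. The count of higher genes was 3 to 6 with 1 array left out.

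Slfn4 was set beside the genes that flank the cluster. The 20 protein-coding genes on either side, in the order of the GRCm38.p6 gene table, held 28 tested genes, of which 7 were lower and 0 higher, a share of 25% beside 19% of all genes, and their median log2 difference was -0.0040. After quantile normalization, 11 were lower and 5 higher. In that setting lower probe sets over the whole array rose from 4057 to 6195 and higher ones from 2207 to 6548. Without Trib1 hi 3, 11 neighbours were lower, and lower probe sets over the whole array rose to 6986. With a floor of 500, 4 of the 12 neighbours still tested were lower, beside 29.3% of all genes. The nearest neighbours over 500 on all arrays of a group were Rffl, a ubiquitin ligase 5 genes before the cluster, at 930.2 ± 133 against 946 ± 71.1 (adjusted p = 0.941), and Ap2b1, a clathrin adaptor 2 genes after it, 1.38-fold lower (1306 ± 131 against 1805 ± 118, adjusted p = 0.00407). The chemokines Ccl9 and Ccl6, 10 and 11 genes after the cluster, read 19812 ± 3775 against 19052 ± 1709 (adjusted p = 0.920) and 14268 ± 2184 against 13889 ± 1146 (adjusted p = 0.934), whereas Ccl3, 12 genes after it, was 2.52-fold lower (adjusted p = 3.32e-11). Rffl, Ap2b1, Ccl9 and Ccl6 were picked with their values known. Ccl4, next to Ccl3, measured 124 ± 174 against 553 ± 63.7 (adjusted p = 0.00119). Its call was lost when signals were raised to 500 (adjusted p = 0.143, alternatives from 5.90e-07 to 0.143). On the other side, Myo1d, a myosin 20 genes before the cluster, was at least 1.88-fold lower (adjusted p = 6.76e-05). Tmem98, 19 genes before the cluster, was at least 1.14-fold lower (adjusted p = 0.000288). The call of Tmem98 was lost at a floor of 500 (adjusted p = 0.0568, alternatives from 3.37e-10 to 0.0568).

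**Figure D5:**
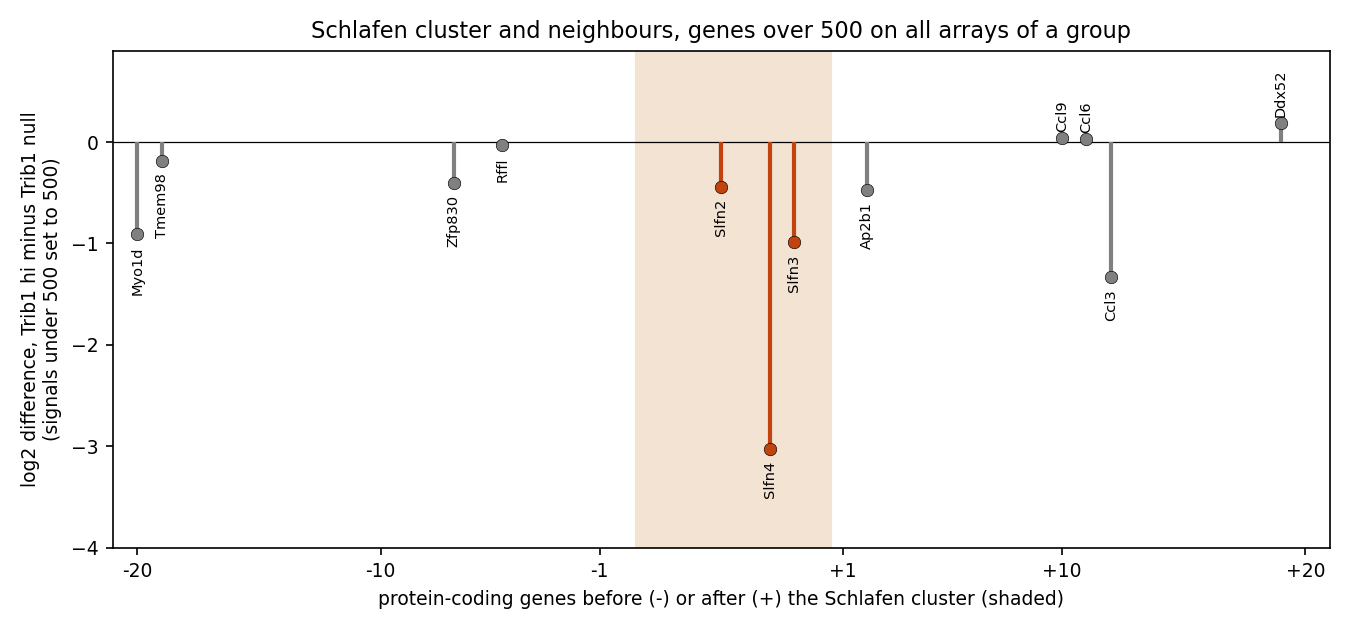
Log2 difference, arrays labelled Trib1 hi minus Trib1 null with signals under 500 raised to 500, of Schlafen genes (shaded cluster) and of neighbouring protein-coding genes over 500 on all arrays of at least 1 group, in chromosomal order. Slfn4 lies at -3.02, Slfn2 at -0.44 and Slfn3 at its bound of -0.99; of the 9 neighbours shown, Ccl3 at -1.33 is lowest and Rffl, Ccl6 and Ccl9 lie near 0.

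Of 15 myeloid markers on the array, 10 exceeded 500 on all 8 arrays and 14 on all arrays of at least 1 group. The summed intensity of the 15 ran from 117554 to 169039 in the arrays labelled Trib1 hi and from 140053 to 167789 in those labelled Trib1 null. By limma 5 of the 15 were lower, 4 were higher and 6 did not pass, beside 19% lower and 10.3% higher among all genes. Itgam, the integrin of mature myeloid cells, moved in the same direction as Slfn4 (1660.0 ± 88.9 against 5122 ± 325, 3.09-fold lower, adjusted p = 6.89e-13), and the primary granule gene Elane moved the other way (5.55-fold higher, adjusted p = 4.60e-14), as did Mpo, another granule gene, at 5201 ± 755 against 2.92 ± 0.791 (adjusted p = 6.04e-14, at least 10.4-fold higher). This gene was thus at the bottom of the scale in the arrays labelled Trib1 null, and the means of Il3ra (269) and Csf3r (415), receptors for IL-3 and G-CSF picked with their values known, were under 500 in those labelled Trib1 hi. Prtn3 and Ctsg, primary granule genes also picked with their values known, did not pass. Prtn3 read 20317 ± 3232 against 18019 ± 777 (adjusted p = 0.469) and Ctsg 35775 ± 6185 against 36898 ± 3493 (adjusted p = 0.874). Kit, a receptor of progenitors, measured 379.9 ± 208 against 77.3 ± 41.2 (adjusted p = 0.00936). That call was lost without Trib1 hi 4 and at a floor of 500 (adjusted p up to 0.405, alternatives from 5.79e-07). Of 11 macrophage markers, 9 were under 500 on all 8 arrays; Cd68 was 1.52-fold lower and Adgre1 1.45-fold higher (adjusted p = 4.56e-05 and 0.000377), and the summed level overlapped (7709 to 9510 against 7771 to 8714). Of 10 T cell markers, 9 were under 500 on all arrays, and Thy1, at 8337 ± 1477 against 267 ± 56.9 (at least 16.7-fold higher, adjusted p = 2.40e-19), was the one above 500 in the arrays labelled Trib1 hi; the summed level was 6925 to 9291 against 249 to 625. Markers of B cells (summed level 24.6 to 446 against 23.1 to 251), NK cells (at most 205 against at most 29.8) and erythroid cells (45.6 to 724 against 65.0 to 434) were under 500 without exception on all 8 arrays: 6 of 6, 4 of 4 and 5 of 5. Their largest fitted differences, those of Pax5, Cd22, Prf1, Klrk1, Ermap and Alas2, did not pass (adjusted p = 0.426 to 0.896). Of 7 fibroblast and endothelial markers only Pecam1, also carried by myeloid cells, exceeded 500 (1.39-fold lower, adjusted p = 0.00193; summed level of the list 1637 to 1749 against 2125 to 2367). The part of these marker differences in that of Slfn4 was not tested.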

How the data were processed

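Total RNA of 8 samples, 4 per group by sample title, was measured on 1 array each. Per the submitters' processing notes the authors used MAS5, which gave the deposited intensity of each probe set; no version or detection calls were used here. The 2% trimmed mean was 500.1 to 500.2 on every array. Of 45141 probe sets, 104 are controls, 28898 have 1 gene symbol in the platform annotation, 551 several and 15588 none; 28689 of the single-symbol ones matched the GRCm38.p6 gene table. limma 3.58.1 in R 4.3.3 (lmFit, eBayes with trend, two-sided, Benjamini-Hochberg, threshold 0.05) was fitted to log2(intensity + 2.71), the pseudocount being the 25th percentile of all values, which shrinks changes of dim genes. Their fitted differences can still be far larger than with signals raised to 500, as for Tmem98 (-5.37 against -0.18). The fit covered non-control probe sets whose mean log2 value exceeded 3.01, the 40th percentile, and 6 of the 9 Schlafen probe sets passed. The script was tested on simulated data. A gene was taken by its brightest single-symbol probe set. Folds used signals raised to at least 500, a limit set in earlier work after these arrays had been seen.

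The members, gene lists, limits and motifs were chosen with earlier results of these data known. Named from each list were up to 4 called genes with the largest fitted difference and no overlap (2 as values where none was called), besides every Schlafen probe set, Trib1, Hoxa9 and the 5 genes most like the brightest member; exceptions are marked. Alternatives were quantile normalization, equal 90th percentiles, a pseudocount of 16, a floor of 500, no filter, the replicate block, leaving out each array, the mean of a gene's probe sets and, chosen after seeing the data, counts over genes above 500 on all 8 arrays. Precision is limited by having 4 arrays in each group.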

Additional observations from a re-analysis of the deposited data

Results flagged for a closer look

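In 33 of 96 groups of 4 arrays examined for the named probe sets, 1 array stood apart from the other 3. Chance gives about 5% for independent groups. The groups here share the same 8 arrays, so their count is not comparable with that share. Trib1 hi 3 was the array that stood apart in 26 of the 33. Among the Schlafen probe sets it gave the intensity that stood apart for Slfn1 (30.2), Slfn2 (3239), Slfn3 1450322_PM_s_at (259), Slfn5 1442640_PM_at (56.9), Slfn5 1458458_PM_at (32.9), Slfn8 (148), Slfn9 (38). Outside the family it did so for Rsad2 (208), Dhx58 (164), Cmpk2 (308), Gbp2 (170), Ifngr1 (3984), Isg20 (542), N4bp1 (771), Adgre1 (4816), Thy1 (6137), Pax5 (54.9), Cd22 (185), Prf1 (75.5), Klrk1 (48.3), Ermap (49.8), Alas2 (37.9), Tmem98 (81.5), Hoxa9 (391), Trib1 with its brighter probe set (122), Trib1 with its dimmer probe set (28.0). The remaining values that stood apart were Slfn8 on Trib1 null 1 (77.4), Elane on Trib1 null 1 (1057), Itgam on Trib1 hi 4 (1527), Pax5 on Trib1 null 1 (2.43), Prf1 on Trib1 null 1 (7.97), Tmem98 on Trib1 null 1 (658), the dimmer Trib1 probe set on Trib1 null 1 (16.7). The cause was not tested.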

How the results depend on the processing

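Slfn4, Slfn2 and 1450322_PM_s_at of Slfn3 were lower without overlap under all 11 alternatives that give such a count, and leaving out each array in turn moved the log2 difference of Slfn4 from -3.08 to -2.98, of Slfn2 from -0.48 to -0.34 and of 1450322_PM_s_at from -6.48 to -4.94. The count of higher Schlafen probe sets was 0 under quantile normalization and under a floor of 500, and 1 to 2 with an array left out. Over all probe sets, quantile normalization gave 6548 higher and 6195 lower, no filter gave 2439 lower, and leaving out an array gave 1794 to 3570 higher and 3116 to 6986 lower, both highest without Trib1 hi 3. Quantile normalization gave 3 higher receptor and JAK-STAT genes, 4 lower interferon regulatory factors, 2 higher and 5 lower RNA-acting genes, 7 higher quiescence genes, and 5 higher and 11 lower neighbours. A floor of 500 gave 4 lower neighbours. No filter gave 0 higher and 4 lower receptor genes and 1 lower regulatory factor. The mean of a gene's probe sets gave 9 lower interferon-stimulated genes, 0 higher and 3 lower receptor genes, 0 higher RNA-acting genes, 5 lower quiescence genes and 3 lower neighbours. Among genes over 500 on all 8 arrays, a count of fewer genes, 23.4% of all were lower and 23.7% higher. There, 5 interferon-stimulated genes, 1 regulatory factor, 1 RNA-acting gene, 5 quiescence genes and 3 neighbours were lower and 0 RNA-acting genes higher. With an array left out, higher receptor genes numbered 0 to 3, lower regulatory factors 1 to 5, higher RNA-acting genes 1 to 2, lower ones 3 to 5, lower neighbours 5 to 11 and lower interferon-stimulated genes 13 to 19. Beyond fewer genes or arrays, the cause was not tested. Deviations of same-numbered arrays from their group means correlated with r of -0.48, 0.46, -0.28 and 0.32. With 4 arrays per group and Trib1 hi 3 different in scale, these values cannot decide whether the numbers pair the samples. The replicate block gave 2083 higher and 4141 lower. Signals under 500 give bounds at most.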
